A study of Homo sapiens with 4 samples.

Results

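Circular RNAs of 6 host genes, CAMSAP1, GCN1, SCMH1, FARSA, PLPBP and MYBL2, were followed across control and DIS3-depleted human cells. The hosts were chosen from measured values of these same libraries, because their main circle stood higher in the depleted cells, so the control against depletion values below are descriptions and carry no test. All listed circles of the 6 hosts were taken, 95 of 45182 circRNAs and 6 of 8230 host gene symbols. The main circle of a host is the one with the highest mean level over the 4 libraries, and the other 89 are called minor circles.

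The cells were Flp-In T-REx 293, derived from human embryonic kidney and built to accept a transgene at a fixed genomic site under an inducible promoter. Control and KD cells alike carried Flag-HA DIS3 as such a transgene. In the 2 control libraries the endogenous DIS3 gene was intact, and in the 2 DIS3 KD libraries, from clone 8, it had been knocked out with CRISPR/Cas9. The submitters speak of knock down because uninduced cells still held some DIS3, and by the column names doxycycline, the inducer, was left out for all 4 libraries. The comparison was designed to find circRNAs regulated by DIS3, and the libraries are described as biological replicates of a single KD clone, so clone and depletion cannot be told apart.

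A circRNA forms when the spliceosome joins the end of an exon (the donor) back to the start of the same or an upstream exon (the acceptor). The product has no free ends and is poorly attacked by exonucleases, which makes circles long-lived next to the linear mRNA of their gene. One host can give several circles that share an acceptor or a donor and so draw on the same splice sites. DIS3 is a nuclease of the RNA exosome with both exonuclease and endonuclease activity.

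Levels are given in FPB, backsplice reads scaled to the mapped bases of the library, a depth-normalised value from the deposited table. The controls held 19.6 and 20.4 mapped gigabases with 48895 and 55193 backsplice reads, and KD replicates 1 and 2 held 165 and 47.9 with 352471 and 121507. One read was therefore worth 0.0511 and 0.0489 FPB in the controls but 0.00604 and 0.0209 in the KD libraries, and a rare circle was more easily seen in KD. A circle with 0 reads in both controls could still have had up to 0.0750 FPB there (3 reads over both libraries, counting error only). DIS3 itself does not check the labels, since its 2 circles had 0 reads in each control and 7 and 2 in KD, and no control linear value could be derived. Of 7 genes taken as markers of the line, PAX2 and VIM were hosts with a linear value, in KD libraries alone, so the label of the line could hardly be checked, and none of the 6 leukocyte, fibroblast and hepatocyte markers was listed as a host.

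Both KD libraries stood above both controls for the main circle of all 6 hosts, which is how the hosts were picked. The ratio of the KD mean to the control mean was 1.35 for GCN1, 2.05 for CAMSAP1, 3.61 for SCMH1 and 6.23 for FARSA. For MYBL2 and PLPBP the controls held 2 reads and 0 reads. Over the 2427 circRNAs with a mean of at least 0.174 FPB, the same order of libraries was found for 16.2% and the opposite order for 38.4%, and the median log2 difference, KD minus control, was -0.33. None of the main circles passed limma over that table (adjusted p under 0.05), so they are described as higher in KD and not as changed.

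**Figure D1:**
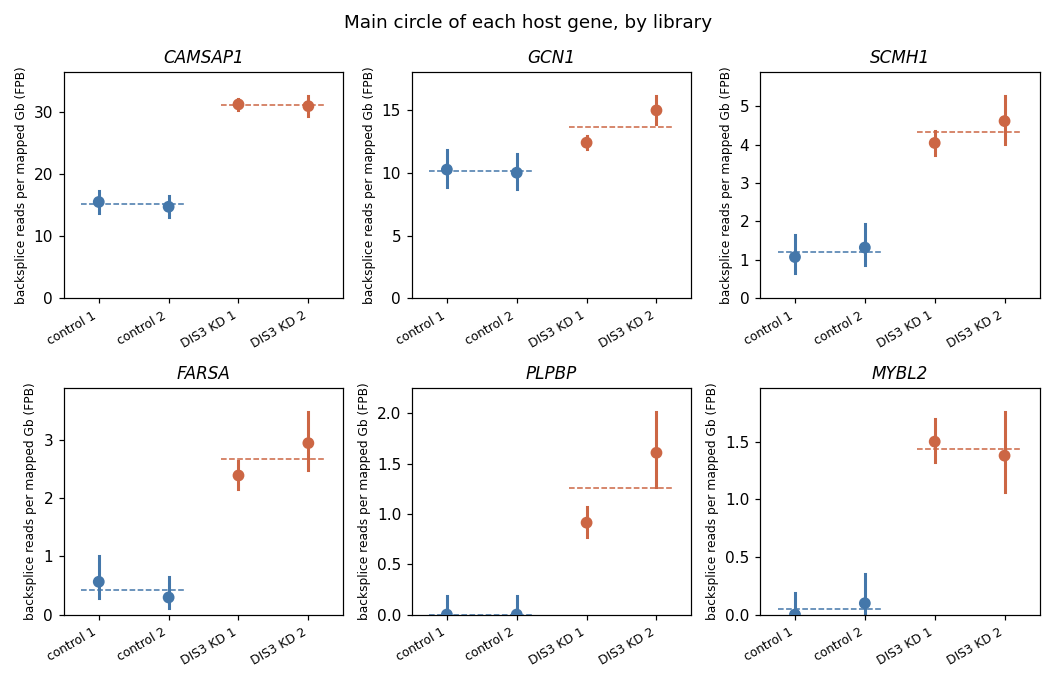
Level of the main circle of each host in FPB (y axis, from 0, a different scale per panel) in the 4 libraries (x axis). Points are libraries, vertical lines are exact 95% Poisson intervals for counting error only, and dashed lines are group means; the KD points lie above the control points in all 6 panels, from a ratio of 1.35 for GCN1 to PLPBP with no control read.

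CAMSAP1 encodes a protein that binds and stabilises the minus ends of microtubules. Its main circle lies on chromosome 9 at 135881633 to 135883078 (hg38, 1446 bases of genomic span), and its acceptor is 24468 bases from the RefSeq start of the gene, which runs on the minus strand. It held 303 and 301 reads in controls, 15.5 and 14.7 FPB. In KD it held 5161 and 1481 reads, 31.2 and 30.9 FPB. The groups were far apart and each was tight, with a control mean of 15.1 ± 0.545 FPB and a KD mean of 31.1 ± 0.200 (SD, n = 2 each). By abundance it ranked 3 and 5 in the controls and 2 in both KD libraries.

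The 13 minor circles of CAMSAP1 did not share this order. Summed, they stood at 2.15 and 3.47 FPB in controls and at 1.87 and 1.96 in KD, below both controls, a ratio of 0.681. The most abundant of them, 135850137 to 135883078, uses the acceptor of the main circle with a donor farther downstream. It had 0.716 and 1.17 FPB in controls and 0.870 and 0.918 in KD, so the KD libraries fell between the controls. A second circle with the same acceptor, 135866456 to 135883078, had 0.358 and 0.440 FPB in controls and 0.230 and 0.209 in KD, below both controls. Together the 3 minor circles that share the main acceptor had means of 1.39 ± 0.451 FPB (control) and 1.14 ± 0.0236 (KD), and the 10 that share neither end had 1.42 ± 0.486 and 0.771 ± 0.0903 (SD, n = 2 each). The further circles from the donor at 135850137 with a mean of at least 0.174 FPB overlapped between groups. With the acceptor at 135862608, control levels were 0.102 and 0.587 FPB against 0.417 and 0.522 in KD. With the acceptor at 135850461, they were 0.767 and 0.147 FPB against 0.157 and 0.209. In both circles the KD libraries lay between the controls. Below that mean, 135850137 to 135881794 had 0.205 and 0.391 FPB in controls and 0.0302 and 0.0209 in KD, below both controls. From the same donor, 135850137 to 135866536 had 0 and 9 reads in controls and 0 in both KD libraries.

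GCN1 encodes a ribosome-bound protein needed for the activation of the kinase GCN2 when amino acids run short or ribosomes stall. Its main circle lies on chromosome 12 at 120154970 to 120155719 (750 bases of span), 38996 bases from the start of the gene, again on the minus strand. The RefSeq miRNA gene MIR4498 lies inside this span on the same strand, and it is shown because it is the one miRNA of the RefSeq table within the span of any of the 6 main circles. The hairpin lies at chr12:120155434-120155499 (GRCh38.p14), with the mature miRNA in capitals in the first line and the seed, bases 2 to 8, in capitals in the second.
MIR4498 hairpin: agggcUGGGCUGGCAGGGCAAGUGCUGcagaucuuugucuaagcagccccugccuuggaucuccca
hsa-miR-4498: uGGGCUGGcagggcaagugcug
Whether these bases are kept in the circle or removed with an intron is not given by the files, which list backsplice ends alone. The hairpin lies within the span of 5 of the 35 GCN1 circles.

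The main GCN1 circle held 201 and 205 reads in controls, 10.3 and 10.0 FPB. In KD it held 2056 and 719 reads, 12.4 and 15.0 FPB. The means were 10.2 ± 0.177 and 13.7 ± 1.82 FPB (SD, n = 2 each), a ratio of 1.35, and the KD libraries differed from each other by more than the lower of them differed from the higher control. The circle ranked 9 in both control libraries and 3 in both KD libraries. The 34 minor circles were rare. Their sum was 0.358 and 0.489 FPB in controls and 0.792 and 0.835 in KD, a ratio of 1.92, and 28 of them were read in KD alone. The minor circle 120142507 to 120142941 had 2 and 0 reads in controls and 21 and 10 in KD (0.127 and 0.209 FPB). Another, 120149606 to 120151391, had 0 and 6 reads in controls and 9 and 0 in KD, and 120183569 to 120184887 had 0 control reads and 11 and 5 in KD. Among those 34, 1 shares an end with the main circle.

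SCMH1 encodes a Polycomb group protein, a homologue of Drosophila Sex comb on midleg that associates with Polycomb repressive complex 1. Its main circle lies on chromosome 1 at 41070595 to 41075451 (4857 bases), late in a gene of 215105 bases on the minus strand. It held 21 and 27 reads in controls, 1.07 and 1.32 FPB. In KD it held 669 and 221 reads, 4.04 and 4.61 FPB. The groups were 1.20 ± 0.175 and 4.33 ± 0.402 FPB (SD, n = 2 each) and did not overlap, and the circle ranked 344 and 280 by abundance in the controls and 22 and 27 in KD.

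The most abundant minor circles of SCMH1 lie upstream in the gene and share the donor at 41113283. All 19 minor circles of the host summed to 0.767 and 3.23 FPB in controls and 2.56 and 2.59 in KD, so the controls lay on both sides of KD. The circle 41113283 to 41143112 had 0.563 and 0.538 FPB in controls and 1.18 and 0.918 in KD, above both controls. The circle 41113283 to 41117010 had 0 and 30 reads in the controls, 0 and 1.47 FPB, and 0.822 and 0.939 FPB in KD. On this circle the KD libraries lay between the controls. The circle 41113283 to 41152741 stood at 0.153 and 0.636 FPB in controls and 0.163 and 0.188 in KD, so the KD libraries again reached no further than the controls. The 5 minor circles that use the donor of the main circle had 0 control reads and 17 and 5 reads in KD (0.103 and 0.104 FPB).

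FARSA encodes the alpha subunit of cytosolic phenylalanyl-tRNA synthetase, which charges tRNA with phenylalanine. Its main circle lies on chromosome 19 at 12928342 to 12928847, spans 506 bases and starts 4864 bases into a gene of 11233 bases on the minus strand. It held 11 and 6 reads in controls, 0.563 and 0.294 FPB. In KD it held 395 and 141 reads, 2.39 and 2.94 FPB. The groups did not overlap, and the control levels rest on few reads (exact 95% Poisson intervals 0.281 to 1.01 and 0.108 to 0.639 FPB, counting error only). The remaining 5 circles were read in KD replicate 1 alone, the deepest library, with 19 reads in all. The antisense gene FARSA-AS1 overlaps FARSA but not the main circle, and the sources used here do not say whether reads were counted by strand.

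PLPBP encodes a pyridoxal phosphate binding protein that takes part in vitamin B6 homeostasis. Its main circle lies on chromosome 8 at 37765526 to 37766355 and spans 830 bases. It had 0 reads in both controls. In KD it held 151 and 77 reads, 0.913 and 1.61 FPB. The KD mean of 1.26 ± 0.491 FPB (SD, n = 2) was 16.8 times the 0.0750 FPB that 3 reads over both controls allow. At the KD mean about 50.4 reads would have been counted at the depth of the controls. The ratio of pooled reads per mapped base had a lower exact 95% limit of 11.5, which covers counting error only. The KD libraries differed from each other by more than their counting intervals (0.773 to 1.07 and 1.27 to 2.01 FPB). The host has 1 other circle, with 1 read in KD replicate 2.

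MYBL2 encodes B-MYB, a transcription factor of the cell cycle that joins the MuvB complex to switch on genes of the G2 and M phases. Its main circle lies on chromosome 20 at 43702490 to 43705358 (2869 bases), with the acceptor 35376 bases downstream of the gene start on the plus strand. It held 0 and 2 reads in controls, 0 and 0.0978 FPB. In KD it held 248 and 66 reads, 1.50 and 1.38 FPB. The ratio of pooled reads per mapped base was 29.4, with an exact 95% interval of 8.08 to 244 that covers counting error only.

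The 17 minor circles of MYBL2 summed to 0.869 and 0.832 FPB in controls and 1.37 and 1.36 in KD, above both controls. They are set out here by whether they share an end with the main circle, which holds that rank through its KD level. The circle 43702490 to 43702903, which has the acceptor of the main circle and spans 414 bases, had 0 reads in both controls and 78 and 11 in KD (0.471 and 0.230 FPB). Its KD mean was 4.67 times the limit set by 3 reads over both controls, with the spread and counting error of KD left aside. The longer circle from that acceptor, ending at 43713106, had 1 and 0 reads in controls and 22 and 8 in KD. In all, 4 minor circles share the main acceptor, with 1 and 0 reads in controls and 104 and 20 in KD, 0.629 and 0.417 FPB. Another 4 share the main donor with other acceptors and had 0 reads in both controls and 9 and 4 in KD. Their summed KD mean was 0.0689 FPB, below the 0.0750 FPB that the controls could have missed. The 9 minor circles that share neither end stood at 0.818 and 0.832 FPB in controls and at 0.689 and 0.856 in KD, so the groups overlapped. Of these 9, 5 were read in KD alone. The most abundant of the 9, 43686852 to 43700044, had 0.307 and 0.391 FPB in controls and 0.441 and 0.355 in KD. The circle 43673806 to 43692319 had 0.0511 and 0.294 FPB in controls and 0.0604 and 0.167 in KD. Of the 8 circles with 10 or more reads, the 3 from the main acceptor thus had 0 to 2 reads in each control, and 43686852 to 43700044 overlapped between groups. That cut sums reads over libraries of unequal depth and favours circles read in KD. It leaves out 43686852 to 43687072, from another acceptor, with 9 reads (0.460 FPB) in control replicate 1 and 0 in the other libraries. Not all circles from other acceptors were seen in the controls: 43686852 to 43692319 was read in KD alone, at 0.0363 and 0.209 FPB, and in KD replicate 1 it was below the 0.0750 FPB that the controls could have missed.

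**Figure D2:**
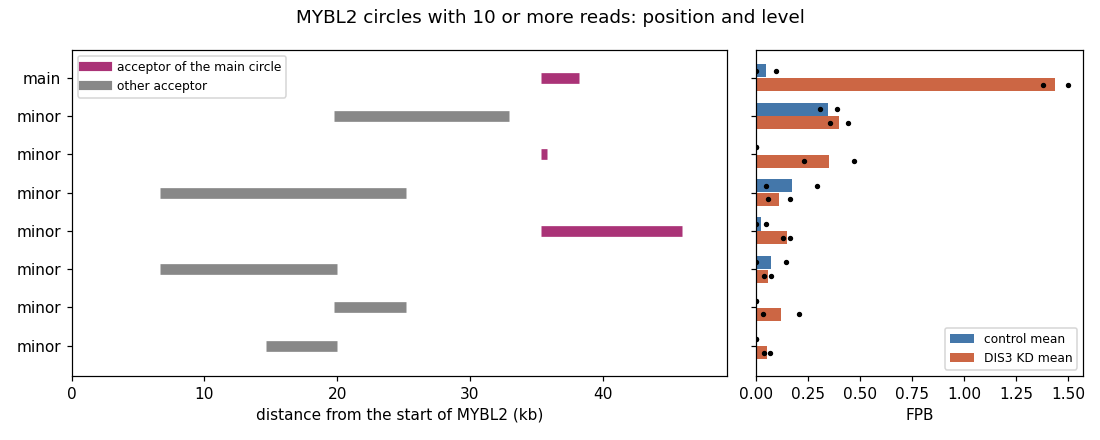
Left, the 8 MYBL2 circles with 10 or more reads over the 4 libraries, drawn by distance from the gene start in kilobases, with the 3 that use the main acceptor in purple. Right, their FPB, with bars for group means and dots for libraries. The 3 purple circles had 0 to 2 reads per control library, and the long grey circle drawn second overlapped between groups. The cut on reads favours the deeper KD libraries and leaves out 43686852 to 43687072, with 9 reads in control replicate 1 alone.

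The share of a host's backsplice reads held by its main circle was read within each library, where depth cancels. The MYBL2 controls were at 0% (Wilson 95% interval 0 to 18.4) and 10.5% (2.94 to 31.4), and the KD libraries at 52.2% (47.7 to 56.7) and 50.4% (41.9 to 58.8). The CAMSAP1 controls were at 87.8% (84.0 to 90.9) and 80.9% (76.6 to 84.6), and the KD libraries at 94.4% (93.7 to 94.9) and 94.0% (92.8 to 95.1). In both hosts the KD libraries lay above the controls. These intervals cover counting error alone, not the spread between cultures, and the shares include the main-circle reads on which the hosts were chosen. The MYBL2 circle is the main one through its KD level. In controls its mean was 0.0489 FPB, against 0.349 for 43686852 to 43700044. A low control share and a high KD share therefore follow in part from how the main circle was picked. The SCMH1 controls were at 58.3% (42.2 to 72.9) and 29.0% (20.8 to 38.9), and the KD libraries at 61.2% (58.3 to 64.1) and 64.1% (58.9 to 68.9), so the controls differed from each other by more than control replicate 1 differed from KD. GCN1 was at 96.6% (93.2 to 98.4) and 95.3% (91.7 to 97.5) in controls and 94.0% (92.9 to 94.9) and 94.7% (92.9 to 96.1) in KD. Its KD shares were slightly lower, but the intervals overlapped. FARSA reads were all from the main circle except in KD replicate 1, at 95.4%.

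**Figure D3:**
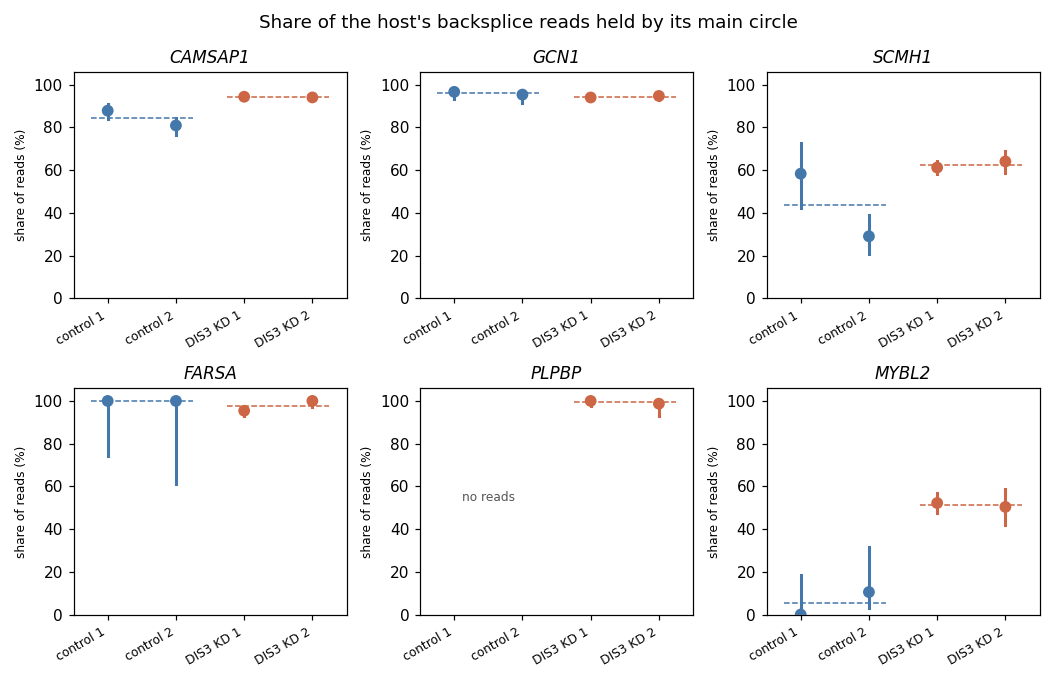
Share of each host's backsplice reads that came from its main circle, in percent (y axis), by library (x axis). Points are libraries, vertical lines are Wilson 95% intervals for counting error only and dashed lines are group means. MYBL2 is at 0% and 10.5% in controls and at 52.2% and 50.4% in KD, and GCN1 lies between 94.0% and 96.6%. The MYBL2 circle is the main one through its KD level.

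**Figure D4:**
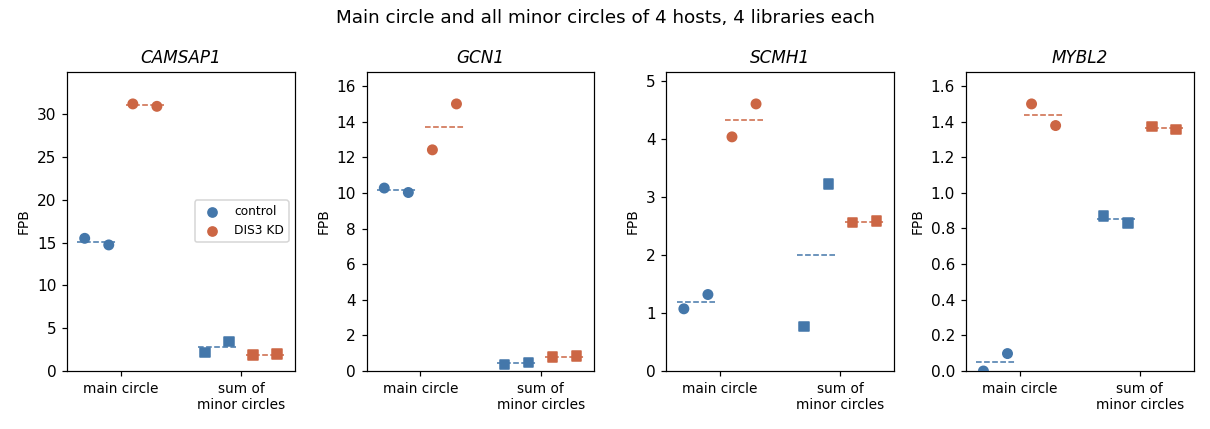
Level in FPB (y axis from 0) of the main circle (dots) and of the sum of all minor circles (squares) for CAMSAP1, GCN1, SCMH1 and MYBL2, with control libraries in blue, KD libraries in orange and dashed lines at group means. The main circle is higher in KD in the 4 hosts, while the minor sum of CAMSAP1 is lower, with a ratio of 0.681, and that of SCMH1 overlaps between groups.

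The linear RNA of the hosts, derived from the ratio of circle to linear signal (CIRCscore), was also higher in both KD libraries than in either control in the 5 hosts where it could be derived. CAMSAP1 linear signal was 5.64 and 5.82 FPB in controls and 8.84 and 8.89 in KD. GCN1 linear signal was 39.95 and 45.3 FPB in controls and 69.8 and 60.7 in KD. SCMH1 linear signal was 6.003 and 6.33 FPB in controls and 7.75 and 8.92 in KD. All 3 hosts had KD libraries above both controls, by ratios of 1.55, 1.53 and 1.35. FARSA linear signal was 56.0 and 71.2 FPB in controls and 105 and 86.6 in KD, and MYBL2 linear signal was 119 and 144 in controls and 214 and 202 in KD, ratios of 1.50 and 1.58. PLPBP linear signal was 8.59 and 8.58 FPB in KD and could not be derived in the controls, where no circle of the gene was read. Over the 2547 hosts whose linear signal could be derived in each library, both KD libraries were above both controls for 25.6% and below for 45.1%, and limma called 35.6% of them, made up of 11.3% higher in KD and 24.3% lower (287 and 619 hosts, or 552 and 583 with libraries centred on their medians, which moved the median by 0.16 on the log2 scale). Of the 5 member hosts it called CAMSAP1 and MYBL2 higher and 0 lower. At an unadjusted limma p under 0.05, 4 were higher and 0 lower, beside 364 and 766 of all 2547 hosts. Both calls were lost when either control was left out, and calls over all hosts also fell then. With libraries centred on their medians it called all 5 higher, a setting in which more hosts were called higher over the whole table too. These values come from the contrast on which the hosts were chosen, and nothing is read from them.

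**Figure D5:**
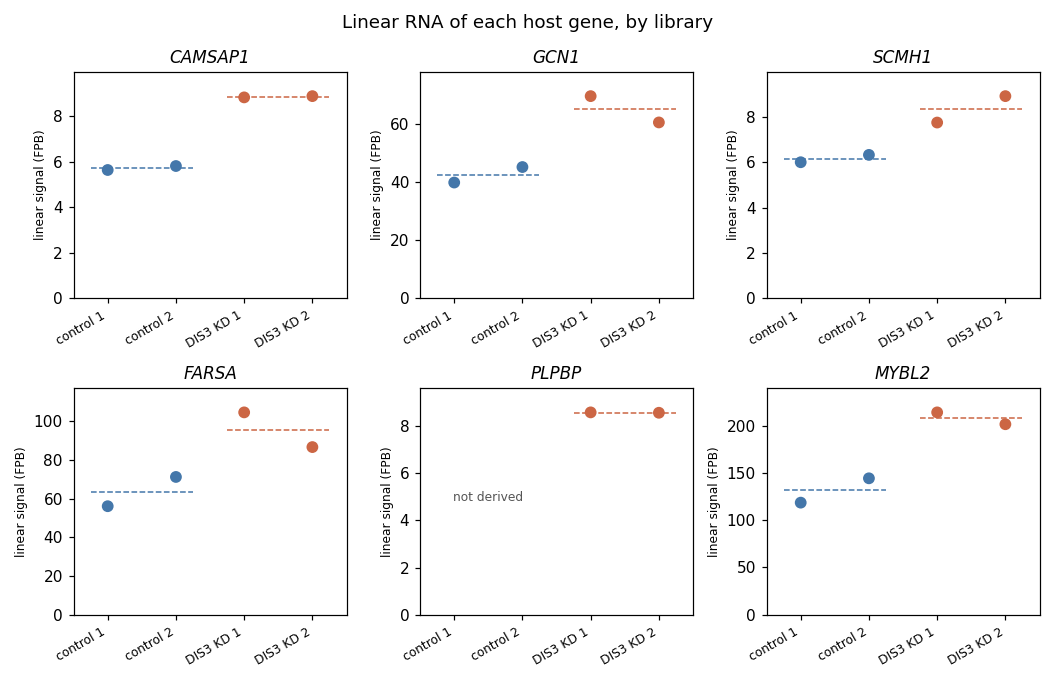
Linear host RNA in FPB (y axis from 0, a different scale per panel) in the 4 libraries (x axis), derived from the deposited values, with dashed lines at group means. The KD libraries lie above the controls in the 5 hosts with control values, by ratios from 1.35 to 1.58, and PLPBP has no control value.

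Set against the linear RNA, the main circles fell into different positions. CIRCscore of the CAMSAP1 circle was above 1 in all libraries, at 2.74 and 2.53 in controls and 3.53 and 3.47 in KD. SCMH1 had control ratios of 0.180 and 0.210 and KD ratios of 0.522 and 0.518. FARSA had control ratios of 0.0102 and 0.00426 and KD ratios of 0.0229 and 0.0341. In these 3 hosts both KD ratios exceeded both control ratios, so the circle differed by more than its linear RNA. GCN1 had control ratios of 0.257 and 0.222 and KD ratios of 0.178 and 0.247, and the groups overlapped. The GCN1 circle and its linear RNA thus stood higher by similar ratios, 1.35 and 1.53. For MYBL2 the KD values were 0.00705 and 0.00688 against 0 and 0.000747, and for PLPBP they were 0.107 and 0.188 against a listed 0 in both controls. Of the 1823 circRNAs that passed the same filter and were read in all 4 libraries, 11.6% had both KD ratios above both controls and 42.6% below. Limma called 0% of them higher and 0.11% lower (unadjusted p under 0.05 in 54 and 326). It called 0 of the 11 member circles among them (unadjusted p under 0.05 for 2 higher and 1 lower). Leaving out either control leaves 1 control library, and calls then rose over the whole table in both directions. No call among the member circles is therefore read from those fits.

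Across all circles of the 6 hosts, 15 passed the filter on mean level and 80 did not. Of the 80, 64 minor circles had fewer than 10 reads. By group, 64 of the 95 circles were read in KD alone, 7 in control alone and 24 in both. Over all listed circRNAs 69.6% had no control read, and the KD libraries were deeper, so this count describes detection. In KD alone, 5 circles had a mean above the 0.0750 FPB limit of the controls, the PLPBP main circle, 2 of MYBL2, 1 of GCN1 and 1 of SCMH1. In KD replicate 1 alone, the circles of GCN1 and SCMH1 and 1 of those of MYBL2 were below that limit. Of the 15 that passed the filter, limma called 0 (0.536% of all tested circRNAs), with 0 higher (0.0824%) and 0 lower (0.453%), and an unadjusted p under 0.05 for 5 higher and 0 lower (124 and 340 of all 2427). On recovered reads edgeR called 0 (unadjusted p under 0.05 for 6 higher), with 1 higher and 0 lower over the whole table. DESeq2 called 5 higher, the main circles of CAMSAP1, FARSA, MYBL2, PLPBP and SCMH1, with 87 higher and 199 lower over the whole table. Among the 9 minor circles that passed the filter, 2 had both KD libraries above both controls, 1 had both below and 6 overlapped. Over all 2427 circRNAs 16.2% were above and 38.4% below, and these few counts are not read as a result. Of the 2 above, MYBL2 43702490 to 43702903 had 0 control reads and passed the filter through KD alone, so its order was fixed. Without control replicate 1, limma called 6 of the 15 main and minor circles higher and 1 lower, beside 321 and 440 of all 2427. Without control replicate 2 it called 8 higher and 1 lower, beside 350 and 337. The main circles of CAMSAP1, FARSA, MYBL2, PLPBP and SCMH1 were among the higher calls in both, and nothing is read from these counts.

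Genes that work with each host were taken as lists, with the same fits over the whole table and the background shares given above. Of the 43 tested circles of the 6 lists limma called 0 (unadjusted p under 0.05 for 3 higher and 5 lower), edgeR 0, and DESeq2 2 higher and 3 lower. Leaving out control replicate 1 gave 5 circles higher and 8 lower by limma, and leaving out control replicate 2 gave 6 and 7. Whole-table counts under the same settings stand above. Of 55 hosts tested in linear RNA, limma called 5 higher and 14 lower, close to the shares over all hosts (11.3% and 24.3%). Their median log2 difference was -0.13, and from -0.28 to -0.02 when 1 library was left out. None of these 19 changed sign under the 10 alternatives, but only EIF2S2, LARS1 and RARS1 passed in all 10. The others each lost the call without at least 1 of the 4 libraries.

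In linear RNA 3 of 9 hosts of the Polycomb list rose and 1 fell, where 11.3% of all hosts were called higher and 24.3% lower. The count of 3 of 9 rests on few genes. The list was built around Polycomb repressive complex 1 but is not confined to its subunits, and includes SFMBT2 and L3MBTL3 as related genes. BCOR, a corepressor of a variant Polycomb complex, rose from 24.8 ± 2.82 to 43.1 ± 1.33 FPB (SD, n = 2 each, limma adjusted p = 0.0122). AUTS2, a subunit of another variant, rose from 4.07 ± 0.403 to 8.14 ± 0.346 FPB (limma adjusted p = 0.00129), SFMBT2 rose and L3MBTL3 fell. These 4 calls were lost without either control, with limma adjusted p up to 0.229 for BCOR and 0.14 for AUTS2. With median centring 6 rose and 1 fell, beside 552 and 583 of all 2547 hosts. The median log2 difference of the 9 hosts was 0.50, against -0.17 over all hosts, and that of their 16 tested circles, from 7 hosts, was 0.50, against -0.33. Without control replicate 1 these medians were 0.22 and 0.03, against -0.23 over all hosts and -0.49 over all tested circles. The circle median was 0.10 with edgeR or DESeq2, against -0.57 over all tested circles with either. The most abundant Polycomb circle, of SFMBT2 on chromosome 10 at 7276892 to 7285954, had 3.68 and 4.50 FPB in controls and 3.29 and 5.22 in KD, so the groups overlapped.

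Of 16 aminoacyl-tRNA synthetases and partners, 2 rose and 4 fell in linear RNA, close to the shares over all hosts (11.3% and 24.3%), so the counts are no result about these enzymes as a group. FARSB, the beta subunit that pairs with FARSA in one enzyme, had 27.0 and 25.04 FPB in controls and 10.4 and 14.6 in KD. It fell with a log2 difference of -1.01 (SE 0.25, limma adjusted p = 0.000512, or 0.0654 without control replicate 1), where linear FARSA stood higher in KD without passing. RARS1, LARS1 and EPRS1, which charge arginine, leucine, and glutamate with proline, fell with log2 differences of -1.43, -1.15 and -0.82, and EPRS1 lost the call without either control or without KD replicate 1. The mitochondrial enzymes SARS2 and NARS2 rose, with 0.89 and 0.56, SARS2 not without control replicate 1 and NARS2 not without either control or KD replicate 2. The median over the list was -0.06, and 0.10 with median centring. The most abundant RARS1 circle (chromosome 5, 168488602 to 168494650) had 3.27 and 1.57 FPB in controls and 0.786 and 1.71 in KD, so the groups overlapped. That of IARS1 (chromosome 9, 92256680 to 92269983) had 1.13 and 0.978 FPB against 1.44 and 2.46, without passing.

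The other 4 lists held 0 linear genes that rose by limma (0 at an unadjusted p under 0.05). Median centring gave 3 for microtubule minus ends and severing, beside 552 of all 2547 hosts. Of 10 genes of that list 4 fell, among them the severing enzyme SPAST (log2 difference -0.92, lost without control replicate 1) and the cross-linker MACF1 (-0.83, lost without either control). The most abundant circle of that list, of CLASP1 on chromosome 2 at 121605701 to 121606180, had 4.70 and 3.33 FPB in controls and 1.56 and 2.00 in KD (limma adjusted p = 0.136), while linear CLASP1 had a log2 difference of 0.06. Of 10 partners of B-MYB and genes it controls 2 fell, the mitotic kinase AURKA (-0.75) and the topoisomerase TOP2A (-0.69), both lost without either control or without KD replicate 1. The count was 0 in each of those fits, but 7 without KD replicate 2. CCNB1, the cyclin of mitotic entry, had a circle at 3.73 and 3.23 FPB in controls and 1.99 and 3.94 in KD and a linear difference of 0.20. Of 7 enzymes that use or make pyridoxal phosphate 2 fell, BCAT1 (-1.01, lost without control replicate 2) and ODC1 (-0.82, lost without control replicate 2 or KD replicate 1). Of 3 genes of the GCN2 and translation stress list EIF2S2, a subunit of initiation factor 2, fell (-1.13). Over all hosts 24.3% were called lower. The counts of the B-MYB, pyridoxal phosphate and GCN2 lists are therefore no result about those genes as groups, and 4 of 10 in the microtubule list rests on few genes.

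By distance in log2 level over the 4 libraries, the circles most like each main circle were sought among the 2412 tested circles of other hosts. That of PLPBP was nearest to circles of WDR1 (chromosome 4, 10097711 to 10103986, distance 0.403) and OMA1 (chromosome 1, 58506060 to 58539310, 0.626), both with 0 reads in the controls and with 131 and 60 and 135 and 50 reads in KD. That of MYBL2 was nearest to circles of FAM193A (0.684) and RBM33 (0.789), with 0 and 2 and 0 and 1 control reads. For SCMH1 they were circles of TRPC1 (0.773) and TBCD (0.974), and for FARSA circles of FKBP8 (1.05) and TTC28 (1.28). The abundant main circles had no close neighbour. CAMSAP1 lay 2.39 from CDR1-AS, which had 5.42 and 8.56 FPB in controls and 63.5 and 77.6 in KD, and 2.69 from FIRRE, and GCN1 lay 1.76 and 1.77 from VRK1 and CPSF6, whose circles were lower in KD.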

How the data were processed

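Ribosomal RNA-depleted total RNA of 2 control and 2 DIS3 KD cultures was sequenced with a directional kit, per the labels' protocols. The build hg38, Bowtie2 2.3.5 and bcl2fastq 2.20 are named in the submitters' processing notes, with no circRNA caller. The deposited FPBcirc is a depth-normalised signal, and the deposited CIRCscore and fold change are ratios, per the file headers. Starts counted from 0 in the table were converted to count from 1. For each sample, FPBcirc values were whole multiples of the value of 1 read, within 0.001 of a read for 100% of values, which gave reads and depth. Linear signal was computed as (FPBcirc + 0.01) / CIRCscore - 0.01, only where a circle was read. This formula was inferred from the values and is not stated in the sources used here; it gave 1 linear value per host for at least 99.8% of hosts with several circles in each library, and all linear values rest on it. For 7 lines of the table no values were used. Gene starts and strands (5 of 6 hosts matched) and miRNA sequences are from RefSeq, GRCh38.p14.

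Groups were compared with limma 3.58.1 (R 4.3.3, trend and robust, two-sided, Benjamini-Hochberg) on log2(value + pseudocount), which understates differences of low circles: 0.0349 for FPBcirc, 0.00448 for CIRCscore and 1.16 for linear signal. edgeR 4.0.16 and DESeq2 1.42.0 were run on the recovered reads. The fits were also run on simulated data with planted changes larger than most ratios given here. That run does not show how well smaller differences are found. Members and gene lists were chosen with earlier results of these data known. Full values are given for the main circle of each host and the next 3 that hold at least 10 reads, the 2 nearest circles and at most 2 genes a list by circle level; other circles, and list genes called in linear RNA, were named after their values were seen. Precision is limited by 2 libraries a group. Figures were drawn with matplotlib 3.10.9.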

Additional observations from a re-analysis of the deposited data

How the results depend on the processing

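Since the hosts were chosen with both KD libraries above both controls, the sign of the main-circle differences could hardly turn and says nothing about stability. Their sizes did move. Centring each library on its median moved differences up by 0.49, to 1.53 for CAMSAP1, 0.92 for GCN1, 2.32 for SCMH1, 3.09 for FARSA and 5.65 for PLPBP, from 1.04, 0.43, 1.83, 2.60 and 5.16. As a share of all backsplice signal CAMSAP1 stood at 1.20 and GCN1 at 0.59. PLPBP, with no control read, stood at 6.14 and 4.20 with the pseudocount halved and doubled. Leaving out one library each gave ranges of 1.00 to 1.07 (CAMSAP1), 0.29 to 0.56 (GCN1), 1.68 to 1.97 (SCMH1), 2.17 to 3.03 (FARSA), 4.76 to 5.56 (PLPBP) and 3.47 to 5.40 (MYBL2). Member circles called in FPBcirc went from 0 to 3 with the pseudocount doubled, 4 with the filter doubled and 5 with DESeq2, and ranged from 0 to 9 over fits that leave out a library. Member hosts called in linear RNA went from 2 to 5 with median centring, beside 552 higher and 583 lower over all hosts. Member circles called in CIRCscore stayed at 0 in the fits that kept all 4 libraries. With the replicate number as a block, 5 member circles were called, beside 36 higher and 98 lower over all circles tested. In linear RNA 4 member hosts were called in that fit, beside 390 higher and 820 lower over all hosts. There 6 rather than 2 of 10 hosts of the B-MYB list fell. The replicate numbers share nothing else in the labels, and replicate differences correlated at 0.00289 (FPBcirc) and 0.0652 (linear) between groups, across features. Over all circles tested in FPBcirc, calls ranged from 0 to 350 higher and from 0 to 440 lower; over hosts in linear RNA from 76 to 552 and from 179 to 916, and in CIRCscore from 0 to 57 and from 0 to 228. The cause of these shifts was not tested. Control depth limits circles below 0.0750 FPB.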
